A study of Mus musculus with 12 samples.

Results

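The interferon-induced GTPases of the mouse are membrane-binding enzymes that cells make on exposure to interferons, and they fall into the guanylate-binding proteins (Gbp genes) and the immunity-related GTPases (Irg genes). The 10 genes described here are Gbp2, Gbp3, Gbp5, Gbp6, Gbp7, Gbp9, Irgm1, Irgm2, Igtp and Iigp1, chosen by symbol because they belong to these families. All 10 were found among the 15584 genes of the deposited table, and all 10 were among the 13759 genes tested. RNA came from the corpus callosum, a white-matter tract of the forebrain, in 4 groups of 3 libraries. They were mice lacking the aryl hydrocarbon receptor in microglia, labelled AHR CKO, under cuprizone; AHR CKO controls; wild-type (WT) mice under cuprizone; and WT controls. Cuprizone is a copper chelator fed to mice to strip myelin from this tract. The study set out to learn what microglial AHR does in that model. The sources used here do not give the Cre driver, the age and sex of the mice or the dose and length of the diet. Nor do they say whether each library was a separate animal, so the p-values rest on the spread between libraries, which may be technical.

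Interferon-gamma switches genes on mainly through DNA elements called GAS, and type I interferons mainly through elements called ISRE. Guanylate-binding proteins coat the vacuoles of microbes and microbial membranes in the cytosol, and they feed into inflammasome activation. Immunity-related GTPases comprise effectors such as Iigp1 (also called Irga6), which loads onto vacuoles of the parasite Toxoplasma and breaks them, and the regulators Irgm1, Irgm2 and Igtp (Irgm3), which sit on the membranes of the host cell and hold the effectors inactive there. In the brain, microglia, astrocytes and endothelial cells can all make them after exposure to interferon.

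The genes lie in clusters (GENCODE M21 on GRCm38, the build of the submitters' processing notes). Gbp5, Gbp7, Gbp3 and Gbp2 follow each other on the plus strand of chromosome 3, from the start of Gbp5 at 142493978 to the end of Gbp2 at 142638008. Gbp9 (105077630 to 105139539) and Gbp6 (105270702 to 105293698) lie on the minus strand of chromosome 5. Igtp (58199556 to 58207591) and Irgm2 (58199618 to 58222782) overlap on the plus strand of chromosome 11, and Irgm1 stands apart from them on the minus strand of that chromosome (48861968 to 48871683). The place of Iigp1 is not described here. Near-identical sequence limits how far reads can be assigned to some of these genes. Of the 50-base windows of the longest coding transcript, 90.2% in Gbp6 also occurred in the predicted gene Gm43302, so the Gbp6 values cannot be taken as those of Gbp6 alone. The share of windows found in any other gene was 12.8% for Gbp7, 12.3% for Igtp, all of these shared with Irgm2, 9.56% for Gbp9 and 7.36% for Irgm2. It lay between 0.234% (Gbp5) and 4.79% (Gbp3) for the other 5 genes. The transcripts of Igtp and Irgm2 share an overlap on the same strand, so reads there may be split between them. Gbp9 likewise overlaps Gbp8 and Gbp4, and whether reads were counted by strand is not stated.

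The start of each gene was searched for both elements because these genes are textbook interferon targets and moved together here. RefSeq promoters (250 bases before to 50 after an annotated start, GRCm38.p6) were matched for 7 of the 10 genes. They were Gbp2, Gbp3, Gbp5, Gbp7, Irgm1, Irgm2 and Igtp. These starts differ from the GENCODE ones behind the spans above. The windows of Gbp5, Irgm1 and Irgm2 and the second of Gbp3 lie wholly inside the GENCODE span of the gene. That of Irgm2 also lies past the end of Igtp. The ISRE letters, GAAA, any 2 bases and GAAA on either strand, occurred in all 7 genes (7 of their 8 promoters, the exception being a second start of Gbp3), against 3.44% of 32851 promoters of the same length genome-wide. The GAS letters, TTC, any 3 bases and GAA, which read alike on both strands, occurred in 4 of the 7 (Gbp5, Gbp7, Irgm2 and Igtp), against 8.30% of all promoters. Both occurred together in the same 4, against 0.454% of all promoters. A match describes the letters in this window and is not evidence that a factor binds there. The promoters below are those of Gbp3 and Gbp5, the genes that differed between genotypes under cuprizone, and of the 3 regulators. They are written 5′ to 3′ along the gene, and capitals mark the letters of either motif.
Gbp3 (chr3:142559794-142560093, plus strand): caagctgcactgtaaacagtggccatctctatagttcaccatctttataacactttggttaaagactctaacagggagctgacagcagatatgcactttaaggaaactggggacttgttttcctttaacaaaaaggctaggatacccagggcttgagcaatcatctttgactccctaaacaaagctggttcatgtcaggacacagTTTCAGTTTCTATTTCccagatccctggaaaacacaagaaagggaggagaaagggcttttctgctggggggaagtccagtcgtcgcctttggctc
Gbp5 (chr3:142496684-142496983, plus strand): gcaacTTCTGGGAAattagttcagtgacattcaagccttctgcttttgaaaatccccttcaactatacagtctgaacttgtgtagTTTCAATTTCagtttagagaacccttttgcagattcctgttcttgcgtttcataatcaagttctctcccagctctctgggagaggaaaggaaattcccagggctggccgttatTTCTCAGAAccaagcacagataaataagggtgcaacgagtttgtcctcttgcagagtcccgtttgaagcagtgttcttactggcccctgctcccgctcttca
Irgm1 (chr11:48871371-48871670, minus strand): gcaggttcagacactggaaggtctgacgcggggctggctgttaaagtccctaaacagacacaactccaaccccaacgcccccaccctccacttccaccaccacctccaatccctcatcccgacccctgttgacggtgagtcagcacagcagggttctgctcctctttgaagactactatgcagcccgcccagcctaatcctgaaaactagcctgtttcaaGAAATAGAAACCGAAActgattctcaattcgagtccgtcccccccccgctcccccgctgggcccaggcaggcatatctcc
Irgm2 (chr11:58214727-58215026, plus strand): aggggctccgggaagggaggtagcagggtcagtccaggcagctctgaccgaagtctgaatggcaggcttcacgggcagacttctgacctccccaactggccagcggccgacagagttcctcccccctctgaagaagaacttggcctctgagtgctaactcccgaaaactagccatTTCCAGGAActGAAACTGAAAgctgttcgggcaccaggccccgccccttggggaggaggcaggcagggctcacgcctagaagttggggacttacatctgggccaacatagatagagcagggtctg
Igtp (chr11:58199306-58199605, plus strand): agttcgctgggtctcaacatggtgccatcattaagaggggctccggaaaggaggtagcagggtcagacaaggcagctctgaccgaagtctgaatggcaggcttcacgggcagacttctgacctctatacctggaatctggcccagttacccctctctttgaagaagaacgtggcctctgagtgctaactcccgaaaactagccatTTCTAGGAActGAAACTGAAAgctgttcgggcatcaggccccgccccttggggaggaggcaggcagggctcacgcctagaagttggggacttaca
In Gbp3 and Irgm1 a pair of overlapping ISRE matches lay within 45 and 30 bases of the start. In Irgm2 and Igtp a GAS match was closely followed by an ISRE match, beginning 75 bases before the start of Irgm2 and 45 bases before that of Igtp. These 2 promoters shared an unbroken run of 61 identical bases, against at most 13 for any other pair of the 7.

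**Figure D1:**
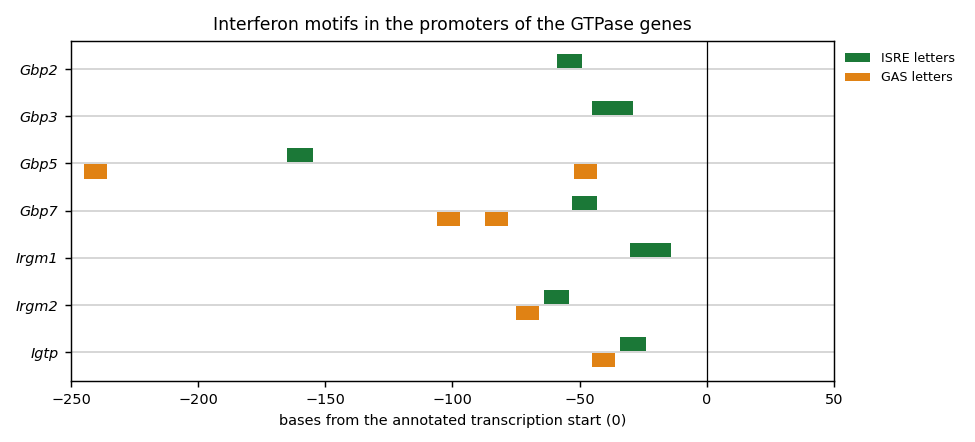
Positions of ISRE letters (green) and GAS letters (orange) in the RefSeq promoters of the 7 matched genes, against the distance in bases from the annotated transcription start. Every row holds at least 1 ISRE match, and Gbp5, Gbp7, Irgm2 and Igtp also hold GAS matches. The first ISRE match of Gbp5 begins 165 bases before the start, while those of the other 6 genes begin between 64 and 30 bases before it.

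Levels are given as FPKM (fragments per kilobase of transcript, scaled to the library's depth), the unit of the deposited table. Changes are on the scale of log2(FPKM + 1), which understates those of low genes, and were tested with limma across all 13759 genes with Benjamini-Hochberg adjustment and a threshold of 0.05. The 12 libraries summed to between 447156 and 519470 FPKM, and replicates of a group correlated across genes with r between 0.972 and 0.993. The table gives no counts, so the depth behind each value is unknown. Ahr itself averaged 1.94 ± 0.567 and 1.76 ± 0.332 FPKM in AHR CKO cuprizone and control tissue, against 1.86 ± 0.141 and 1.78 ± 0.385 FPKM in WT cuprizone and control tissue (SD, n = 3 each). Since other cells of the tissue keep the gene, this does not check the deletion. Oligodendrocyte, astrocyte, microglia and neuron markers were present in every library. Choroid plexus markers varied widely, with sums of 1009 to 3736 FPKM in AHR CKO cuprizone, 416 to 3580 FPKM in AHR CKO control, 56.9 to 2984 FPKM in WT cuprizone and 43.2 to 154 FPKM in WT control libraries. WT cuprizone replicate 2 held the lowest such sum of its group.

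With cuprizone most of the GTPase genes rose in AHR CKO corpus callosum relative to AHR CKO controls. The summed level of the 10 genes was 75.3, 91.0 and 109 FPKM in the AHR CKO cuprizone libraries, against 23.2, 25.95 and 16.8 FPKM in the AHR CKO control libraries. Of the 10 genes 9 rose, 0 fell and 1, Gbp9, did not pass the test, while 7.22% of all tested genes were called higher and 2.98% lower in this comparison. Their median log2 change was 1.72, against -0.01 for all tested genes. In 9 of the 10 all cuprizone libraries lay above all control libraries, which held for 14.3% of all tested genes. Among the genes called, Gbp6 reached 1 FPKM in cuprizone libraries only, in both genotypes. The filter thus let it in through the groups where it was high.

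**Figure D2:**
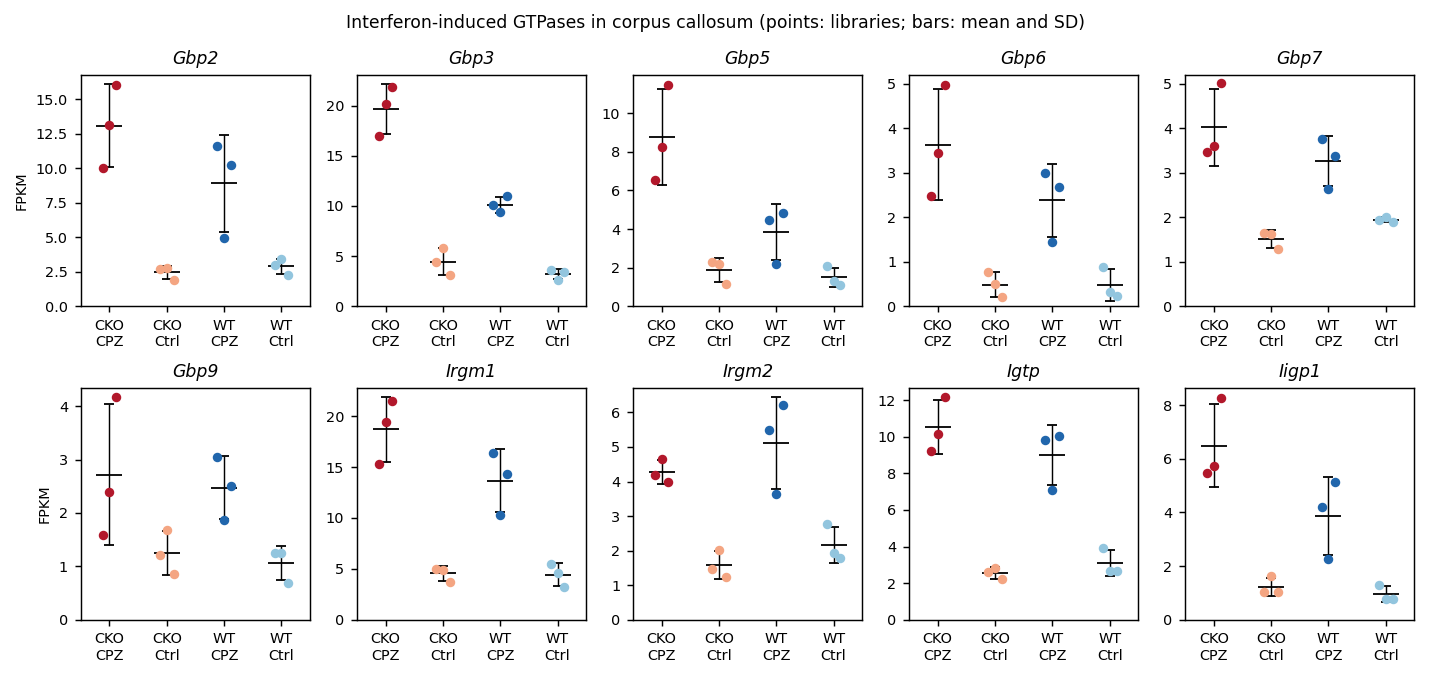
FPKM of each of the 10 genes in every library (points), with the mean and SD of each group of 3 (black bars). Columns run from AHR CKO cuprizone (CKO CPZ) and AHR CKO control (CKO Ctrl) to WT cuprizone (WT CPZ) and WT control (WT Ctrl). Vertical axes start at 0 and differ between panels. Cuprizone libraries lie above control libraries of the same genotype in every panel except Gbp9 in AHR CKO.

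Among the guanylate-binding proteins of chromosome 3, Gbp2, which in mouse macrophages helps break open bacterial vacuoles, stood at 10.04, 13.2 and 16.1 FPKM in AHR CKO cuprizone libraries, against 2.74, 2.76 and 1.93 FPKM in AHR CKO control libraries. This was the largest log2 change of the 10 in AHR CKO (2.01 ± 0.253 SE, 5.28-fold, limma adjusted p = 0.000284). Gbp3 stood at 16.99, 20.1 and 21.8 FPKM in cuprizone libraries, against 4.41, 5.80 and 3.10 FPKM in control libraries. It had the smallest p of the 10 in this comparison (log2 change 1.95 ± 0.168, 4.43-fold, limma adjusted p = 2.14e-05). Gbp5, which promotes inflammasome assembly, stood at 6.54, 8.26 and 11.5 FPKM in cuprizone libraries, against 2.29, 2.17 and 1.18 FPKM in control libraries. Its rise was 4.65-fold (limma adjusted p = 0.000885). Gbp7, tied to the assembly of the phagocyte NADPH oxidase and to autophagy in macrophages, stood at 3.46, 3.59 and 5.02 FPKM in cuprizone libraries, against 1.66, 1.62 and 1.29 FPKM in control libraries (2.65-fold, limma adjusted p = 0.000722). In all 4 genes of the cluster the lowest cuprizone library lay above the highest control library.

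The chromosome 5 genes had the lowest means of the 10 under cuprizone. Gbp6 stood at 2.49, 3.44 and 4.96 FPKM in AHR CKO cuprizone libraries, against 0.762, 0.507 and 0.1999 FPKM in AHR CKO control libraries. The ratio of its means, 7.41, was the largest of the 10 in AHR CKO, while its log2 change of 1.62 was not, since its control values lie below the pseudocount (limma adjusted p = 0.00119). Gbp6 entered the test through its cuprizone libraries alone. It stayed called with the filter lifted and in every other alternative that kept it (limma adjusted p up to 0.00727 in AHR CKO and 0.0304 in WT). Gbp9 stood at 1.59, 2.39 and 4.17 FPKM in cuprizone libraries, against 1.21, 1.68 and 0.859 FPKM in control libraries. Here the groups overlapped, since cuprizone replicate 1 lay below control replicate 2, and the difference did not pass (log2 change 0.68 ± 0.241, limma adjusted p = 0.102). Without AHR CKO cuprizone replicate 1 it passed (log2 change 0.91, limma adjusted p = 0.0341).

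Of the immunity-related GTPases, the regulator Irgm1, needed by macrophages against mycobacteria, stood at 15.3, 19.4 and 21.5 FPKM in AHR CKO cuprizone libraries, against 5.02, 4.93 and 3.73 FPKM in AHR CKO control libraries (4.10-fold, limma adjusted p = 9.21e-05). Igtp, which resides on the endoplasmic reticulum, stood at 9.25, 10.2 and 12.2 FPKM in cuprizone libraries, against 2.63, 2.85 and 2.21 FPKM in control libraries (4.11-fold, limma adjusted p = 4.18e-05). These 2 regulators had nearly the same fold, and the third had a smaller one. Irgm2, a regulator that restrains inflammasome caspases in mouse macrophages, stood at 4.19, 4.66 and 3.97 FPKM in cuprizone libraries, against 1.48, 2.03 and 1.22 FPKM in control libraries (2.71-fold, limma adjusted p = 0.00251). The effector Iigp1 stood at 5.46, 5.75 and 8.27 FPKM in cuprizone libraries, against 1.02, 1.61 and 1.05 FPKM in control libraries (5.29-fold, limma adjusted p = 0.000339). All 4 immunity-related GTPases were thus called higher, with no overlap between the groups.

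In WT tissue the summed level was 71.9, 45.8 and 70.3 FPKM in cuprizone libraries, against 26.2, 20.9 and 18.1 FPKM in control libraries. Again 9 of the 10 rose, 0 fell and Gbp9 did not pass, while 9.08% of all tested genes were called higher and 7.81% lower. The median log2 change of the 10 was 1.23, against -0.04 for all tested genes. All 10 had every cuprizone library above every control library, which held for 15.8% of all tested genes. WT cuprizone replicate 2 had the lowest value of its group for all 10 genes. It was also lowest of its group in the summed markers of choroid plexus, microglia (1692 FPKM, against 2539 and 1899 FPKM in replicates 1 and 3), border macrophages, T and NK cells, fibroblasts, ependymal cells and oligodendrocyte precursors. The same library was highest of its group for neurons (2163 FPKM) and endothelial cells (147 FPKM). For astrocytes, oligodendrocytes and infiltrating myeloid cells it lay between replicates 1 and 3. Among AHR CKO cuprizone libraries the one with the lowest GTPase sum, replicate 1, had the highest choroid plexus sum (3736 FPKM) and the lowest microglia sum (1141 FPKM). The part of these cells was not tested. Without WT cuprizone replicate 2 all 10 genes were called higher in WT.

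Gbp3 varied little in WT, at 10.1, 9.39 and 10.95 FPKM in cuprizone libraries, against 3.62, 2.63 and 3.43 FPKM in control libraries (3.14-fold, limma adjusted p = 0.000108). Irgm1 had the largest log2 change in WT, with 16.4, 10.3 and 14.3 FPKM in cuprizone libraries, against 5.48, 4.59 and 3.24 FPKM in control libraries (log2 change 1.43 ± 0.193, limma adjusted p = 0.000244). Igtp stood at 9.81, 7.09 and 10.1 FPKM in cuprizone libraries, against 3.91, 2.66 and 2.67 FPKM in control libraries (2.92-fold, limma adjusted p = 0.000127). These 3 genes had the smallest adjusted p in both genotypes.

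The spread was wider for Gbp2, at 11.6, 4.95 and 10.2 FPKM in WT cuprizone libraries, against 3.01, 3.397 and 2.28 FPKM in WT control libraries (3.08-fold, limma adjusted p = 0.00366). Iigp1 stood at 4.19, 2.28 and 5.14 FPKM in cuprizone libraries, against 1.29, 0.776 and 0.765 FPKM in control libraries (4.10-fold, limma adjusted p = 0.00167). In both genes replicate 2 was the low cuprizone library. Irgm2 stood at 5.50, 3.63 and 6.21 FPKM in cuprizone libraries, against 2.76, 1.93 and 1.797 FPKM in control libraries (2.36-fold, limma adjusted p = 0.00308). Gbp6 stood at 2.997, 1.45 and 2.69 FPKM in cuprizone libraries, against 0.885, 0.321 and 0.239 FPKM in control libraries (4.94-fold, limma adjusted p = 0.00587). Neither had any overlap between the groups.

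The WT calls of Gbp5 and Gbp7 were the least secure. Gbp5 stood at 4.49, 2.21 and 4.85 FPKM in WT cuprizone libraries, against 2.07, 1.31 and 1.12 FPKM in WT control libraries (2.57-fold, limma adjusted p = 0.0287). The call was lost without WT cuprizone replicate 1 or 3 or WT control replicate 2 or 3, with an adjusted p of up to 0.112, and when these 2 groups alone were fitted (limma adjusted p = 0.0537). Gbp7 stood at 3.75, 2.65 and 3.38 FPKM in cuprizone libraries, against 1.94, 2.01 and 1.89 FPKM in control libraries (1.67-fold, limma adjusted p = 0.0244). Its call was lost without WT cuprizone replicate 1 or 3 or any of the 3 WT control libraries, with an adjusted p of up to 0.103. Gbp9 stood at 3.05, 1.87 and 2.51 FPKM in cuprizone libraries, against 1.24, 1.25 and 0.687 FPKM in control libraries. The groups did not overlap, but the difference missed the threshold (log2 change 0.75 ± 0.241, limma adjusted p = 0.0518). It passed without WT cuprizone replicate 2 (limma adjusted p = 0.0402) or AHR CKO cuprizone replicate 1 or 3 (limma adjusted p = 0.0293 and 0.0206), when these 2 groups alone were fitted (limma adjusted p = 0.0362), and with a pseudocount of 0.1, median-of-ratios scaling or no variance trend (limma adjusted p between 0.0440 and 0.0497). Averaged over both genotypes, all 10 genes rose, where 12.1% of all tested genes did, with adjusted p between 1.08e-06 (Gbp3) and 0.00899 (Gbp9).

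**Figure D3:**
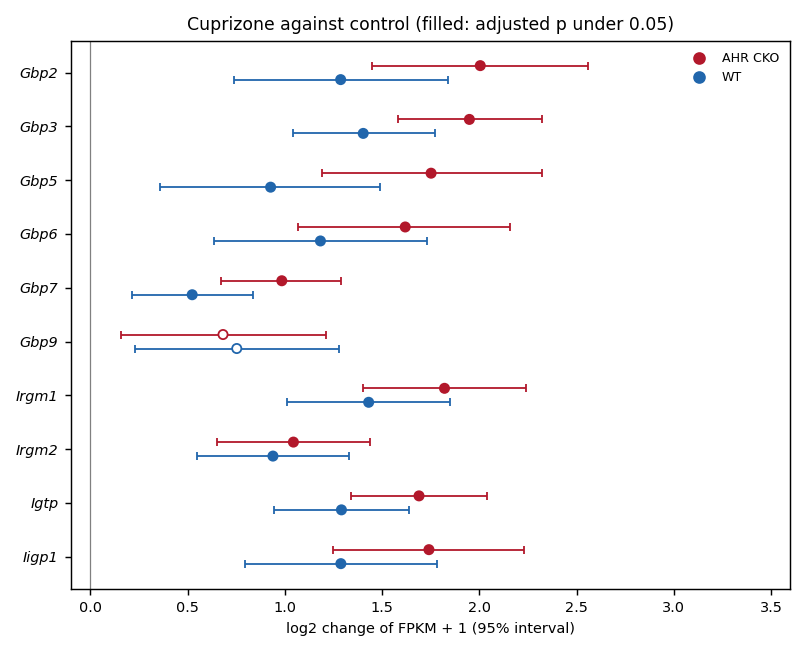
Change of each gene with cuprizone on the log2(FPKM + 1) scale in AHR CKO (red) and WT (blue), with limma's 95% confidence interval. Filled points passed the threshold of 0.05 on the adjusted p, and the open points are those of Gbp9. The point for AHR CKO lies to the right of that for WT in 9 of the 10 genes, but the intervals overlap and no interaction passed its test.

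The genotypes were then compared within cuprizone-fed mice. These libraries are also those of the comparisons above, so the results are not independent of them. Of the family, Gbp3 stood above WT in cuprizone-fed AHR CKO mice, with 16.99, 20.1 and 21.8 FPKM in AHR CKO cuprizone libraries and 10.1, 9.39 and 10.95 FPKM in WT cuprizone libraries (log2 change 0.89, 95% interval 0.52 to 1.25, 1.94-fold, limma adjusted p = 0.00808). Gbp5 was also higher, with 6.54, 8.26 and 11.5 FPKM in AHR CKO cuprizone libraries and 4.49, 2.21 and 4.85 FPKM in WT cuprizone libraries (log2 change 1.03, 95% interval 0.46 to 1.59, 2.27-fold, limma adjusted p = 0.0205). In both genes every AHR CKO library lay above every WT library. These 2 of 10 called higher compare with 9.14% of all tested genes, and 0 of 10 called lower with 10.8%. Gbp5 lost its call without AHR CKO cuprizone replicate 2 (limma adjusted p = 0.0506) and when only these 2 groups were fitted (limma adjusted p = 0.0520).

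The other 8 genes did not pass. Iigp1 was the third gene whose groups did not overlap, at 6.49 ± 1.55 FPKM in AHR CKO and 3.87 ± 1.46 FPKM in WT tissue under cuprizone (SD, n = 3 each, log2 change 0.65, 95% interval 0.16 to 1.14, limma adjusted p = 0.0610). It passed without WT cuprizone replicate 3 (limma adjusted p = 0.0489). Groups lay apart in this direction in 18.9% of all tested genes. Gbp2 averaged 13.1 ± 3.002 FPKM in AHR CKO and 8.92 ± 3.51 FPKM in WT tissue (limma adjusted p = 0.133), and Irgm1 18.7 ± 3.16 FPKM in AHR CKO and 13.7 ± 3.08 FPKM in WT tissue (limma adjusted p = 0.123). The interval of the log2 difference reached from -0.09 to 0.997 for Gbp6, from -0.08 to 0.54 for Gbp7, from -0.48 to 0.58 for Gbp9 and from -0.13 to 0.56 for Igtp. Irgm2 was the single gene with a negative difference, at 4.28 ± 0.354 FPKM in AHR CKO and 5.12 ± 1.33 FPKM in WT tissue (log2 change -0.19, 95% interval -0.58 to 0.20, limma adjusted p = 0.460). The median log2 difference of the 10 was 0.44, against 0.00 for all tested genes. With limma 5 of the 10 reached an unadjusted p under 0.05, against 37.2% of all tested genes.

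Without cuprizone 0 of the 10 genes passed between genotypes with limma, and 0 of them reached an unadjusted p under 0.05. Of all tested genes 6.19% were called and 27.6% reached an unadjusted p under 0.05. The summed level averaged 22.0 ± 4.72 FPKM in AHR CKO control tissue and 21.7 ± 4.12 FPKM in WT control tissue (SD, n = 3 each). Gbp3 averaged 4.44 ± 1.35 FPKM in AHR CKO controls and 3.23 ± 0.527 FPKM in WT controls (log2 change 0.34, 95% interval -0.03 to 0.71, limma adjusted p = 0.210). Gbp7 was the single gene whose control groups did not overlap, with 1.66, 1.62 and 1.29 FPKM in AHR CKO controls and 1.94, 2.01 and 1.89 FPKM in WT controls (limma adjusted p = 0.318), a separation in that direction seen in 21.9% of all tested genes.

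The test of whether cuprizone acted differently in the 2 genotypes passed for 0 of the 10 genes with limma, and for 0.0363% of all tested genes. The cuprizone change was larger in AHR CKO for 9 of the 10, and 3 of the 10 reached an unadjusted p under 0.05, against 9.56% of all tested genes. These 3 were Gbp5 (log2 difference 0.83, 95% interval 0.02 to 1.63, limma adjusted p = 0.513), Gbp3 (0.55, 95% interval 0.03 to 1.07, limma adjusted p = 0.497) and Gbp7 (0.46, 95% interval 0.02 to 0.90, limma adjusted p = 0.5). For Gbp9 the difference was -0.07, with an interval from -0.81 to 0.67. Averaged over both treatments, Gbp3 (limma adjusted p = 0.00374) and Gbp5 (limma adjusted p = 0.0248) were higher in AHR CKO and the other 8 did not pass, while 14.5% of all tested genes were called higher and 19.1% lower. For Gbp5 this average did not pass when WT control replicate 2 or AHR CKO control replicate 1 or 2 was dropped, with an adjusted p of up to 0.0564, and Irgm2 was called lower without WT cuprizone replicate 2 (log2 change -0.34, limma adjusted p = 0.0390).

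**Figure D4:**
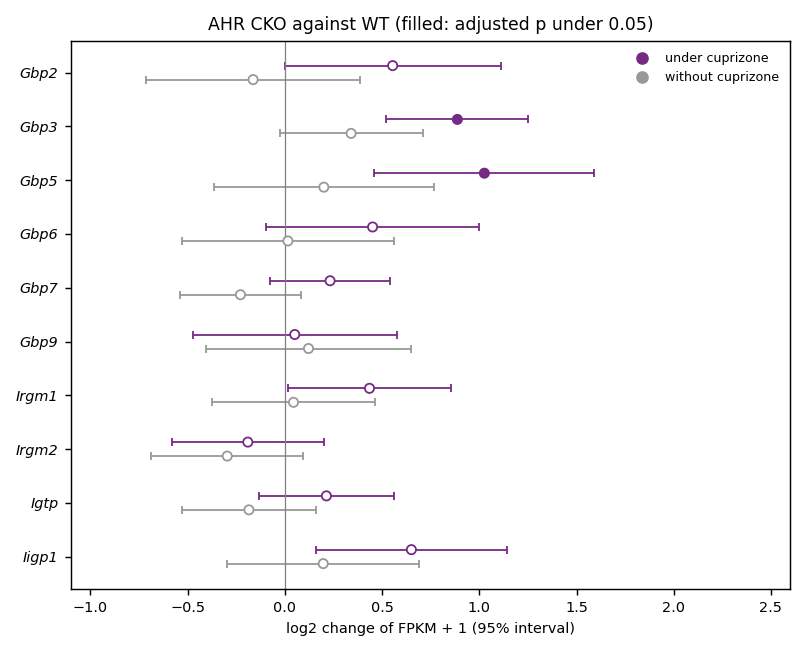
Difference of AHR CKO from WT on the log2(FPKM + 1) scale for each gene, under cuprizone (purple) and without it (grey), with limma's 95% confidence interval. Filled points passed the threshold of 0.05 on the adjusted p. Under cuprizone Gbp3 and Gbp5 are filled, and without cuprizone all points are open.

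The order of the levels among the genes was much alike in the 4 groups. In AHR CKO cuprizone tissue it ran from Gbp3 (19.7 ± 2.46 FPKM) and Irgm1 (18.7 ± 3.16 FPKM) through Gbp2, Igtp, Gbp5, Iigp1, Irgm2, Gbp7 and Gbp6 to Gbp9 (2.71 ± 1.32 FPKM). The only neighbours in that order whose libraries did not overlap were Iigp1 and Irgm2. Irgm1 was first in the other 3 groups and Gbp3 next to it, and Gbp6 was last, at 0.490 ± 0.281 FPKM in AHR CKO controls, 2.38 ± 0.818 FPKM in WT cuprizone tissue and 0.482 ± 0.352 FPKM in WT controls. Gbp3 made up 21.4% and 20.2% of the summed FPKM of the 10 in AHR CKO cuprizone and control tissue, against 16.2% and 14.8% in WT cuprizone and control tissue. Irgm2 made up 4.65% and 7.17% in AHR CKO cuprizone and control tissue, against 8.16% and 9.95% in WT cuprizone and control tissue. These shares were not tested.

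The genes also varied together within groups. AHR CKO cuprizone replicate 3 was the highest of its group for 9 of the 10 genes and replicate 1 the lowest for 9. AHR CKO control replicate 3 was the lowest of its group for 9, WT cuprizone replicate 2 for all 10 and WT control replicate 3 for 8. Across the 12 libraries, each gene correlated with the mean z-score of the other 9 with Pearson r between 0.882 (Irgm2) and 0.991 (Irgm1), as a description of libraries that share the cuprizone contrast. By the same measure the 4 genes outside the family whose pattern was most like the mean of the 10 were Oasl2 (r = 0.989), H2-M3 (r = 0.984), Plscr2 (r = 0.981) and Cxcr4 (r = 0.981). Oasl2, an interferon-induced gene related to the oligoadenylate synthetases, averaged 23.0 ± 3.53 and 2.29 ± 0.773 FPKM in AHR CKO cuprizone and control tissue, against 11.1 ± 3.87 and 2.03 ± 0.499 FPKM in WT cuprizone and control tissue (SD, n = 3 each).

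Markers of other cells were read in the same libraries. Over 12 microglia markers the summed level was 1141 to 1934 FPKM in AHR CKO cuprizone libraries, against 409 to 423 FPKM in AHR CKO control libraries, and 1692 to 2539 FPKM in WT cuprizone libraries, against 427 to 477 FPKM in WT control libraries. Of the 12, 8 rose with cuprizone in AHR CKO and 9 in WT. Under cuprizone 0 of the 12 were higher and 4 lower in AHR CKO than in WT (Csf1r, Itgam and Fcrls among them). Of all tested genes 9.14% were higher and 10.8% lower in this comparison, and Gbp3 and Gbp5 were higher. There 1 of 5 fibroblast markers and 1 of 4 ependymal markers were higher too, and 0 of 6 choroid plexus markers passed. In turn 1 of 6 astrocyte markers, 1 of 7 endothelial markers and 1 of 4 oligodendrocyte precursor markers were lower. Averaged over treatments, 3 of 5 fibroblast, 2 of 6 choroid plexus and 1 of 4 ependymal markers were higher in AHR CKO (14.5% of all tested genes). In that average 6 of 12 microglia markers were lower (19.1% of all tested genes). Without cuprizone 2 of 5 fibroblast markers were higher, and 0 of 6 choroid plexus markers passed, though 5 had an unadjusted limma p under 0.05 (27.6% of all tested genes). Over 6 astrocyte markers the sums were 1244 to 2072 FPKM in AHR CKO cuprizone libraries, against 660 to 799 FPKM in AHR CKO control libraries, and 1806 to 2297 FPKM in WT cuprizone libraries, against 821 to 959 FPKM in WT control libraries. In both genotypes 4 of these 6 rose. Oligodendrocyte markers moved the other way. Their sum over 8 genes was 4001 to 4923 FPKM in AHR CKO cuprizone libraries, against 9295 to 9925 FPKM in AHR CKO control libraries, and 3022 to 3630 FPKM in WT cuprizone libraries, against 9662 to 17540 FPKM in WT control libraries. With cuprizone 7 of the 8 fell in AHR CKO (median log2 change -1.19) and 8 of 8 in WT (median log2 change -2.18), and under cuprizone 2 of the 8, Mag and Aspa, were higher in AHR CKO tissue relative to WT. Of 7 endothelial markers 0 passed in limma with cuprizone in either genotype, with 0 in AHR CKO and 1 in WT at an unadjusted p under 0.05. In whole tissue, more cells of a type and more RNA per cell cannot be told apart, and the part of these cell types in the GTPase levels was not tested.

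**Figure D5:**
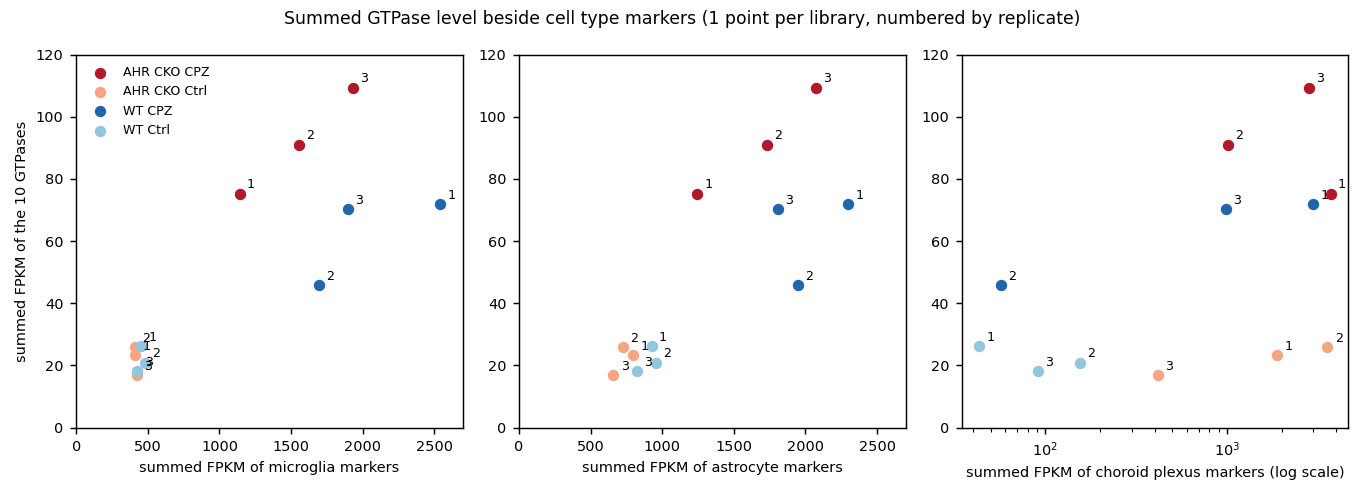
Summed FPKM of the 10 GTPase genes (vertical axis) against the summed FPKM of microglia, astrocyte and choroid plexus markers (horizontal axes, the last on a log scale), with 1 point per library and the replicate number beside it. AHR CKO cuprizone libraries (75.3 to 109 FPKM of GTPases) lie above WT cuprizone libraries (45.8 to 71.9 FPKM). These sums were not tested, and 8 of the 10 genes did not pass between genotypes under cuprizone. The microglia marker sums overlap, at 1141 to 1934 FPKM in AHR CKO cuprizone libraries and 1692 to 2539 FPKM in WT cuprizone libraries.

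Blood-derived cells were read through shorter lists. Of 12 T and NK cell markers 3 were measured here, Cd4, Cd8a and Klrb1c, with sums of 5.06 to 11.9 FPKM in AHR CKO cuprizone, 8.09 to 11.8 FPKM in AHR CKO control, 2.56 to 5.39 FPKM in WT cuprizone and 3.12 to 19.4 FPKM in WT control libraries. Most of this was Cd4, which is also made by myeloid cells. Cd8a, the defining marker of cytotoxic T cells, averaged 0.433 ± 0.0764 and 0.0459 ± 0.0400 FPKM in AHR CKO cuprizone and control tissue, against 0.341 ± 0.173 and 0.0988 ± 0.0720 FPKM in WT cuprizone and control tissue, and was too low to be tested. Klrb1c was listed at 0 in all 3 AHR CKO control libraries and at a mean of up to 0.176 FPKM elsewhere. Of 6 infiltrating myeloid markers 4 were measured, with sums of 2.20 to 4.62 FPKM in AHR CKO cuprizone, 0.984 to 1.99 FPKM in AHR CKO control, 3.03 to 3.999 FPKM in WT cuprizone and 0.859 to 2.10 FPKM in WT control libraries.

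The rest of the pathway was followed from ligand to target. The counts of the lists that follow stand beside these shares of all tested genes. With cuprizone 7.22% were called higher and 2.98% lower in AHR CKO, and 9.08% higher and 7.81% lower in WT. Between genotypes 9.14% were called higher and 10.8% lower under cuprizone, and 6.19% in either direction without it. Of 13 listed ligands, the interferons themselves were not analysed here and 2 other cytokines were tested. Il18, an inducer of interferon-gamma, fell with cuprizone in WT, to 12.8 ± 0.551 FPKM, against 16.8 ± 0.855 FPKM in controls (SD, n = 3 each, limma adjusted p = 0.0436). In AHR CKO it stood at 13.4 ± 2.597 FPKM under cuprizone and 14.9 ± 1.10 FPKM in controls (limma adjusted p = 0.445). Il12a passed in neither. Of 7 interferon receptor chains and Janus kinases, 2 rose in AHR CKO (Ifngr1 and Ifnar2) and 2 in WT (Ifngr1 and Ifngr2), and 0 fell in either. The interferon-gamma receptor gene Ifngr1 averaged 15.3 ± 3.79 and 8.98 ± 2.06 FPKM in AHR CKO cuprizone and control tissue, against 18.9 ± 3.45 and 10.3 ± 0.337 FPKM in WT cuprizone and control tissue. Under cuprizone the kinases Jak1 (limma adjusted p = 0.0356) and Jak2 (limma adjusted p = 0.0192) were lower in AHR CKO than in WT, and Jak2 was lower without cuprizone too (limma adjusted p = 0.0348). Ifnar1 and Tyk2 passed in no comparison just named.

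Of 11 tested transcription factors of the pathway 9 rose with cuprizone in AHR CKO and 8 in WT, and 0 fell, with medians of 1.04 and 0.93 on the log2 scale. Irf1, which drives many Gbp genes, stood at 9.58 ± 1.001 FPKM under cuprizone in AHR CKO, against 4.13 ± 0.291 FPKM in controls (limma adjusted p = 0.000304). In WT it stood at 7.83 ± 1.62 FPKM under cuprizone, against 3.15 ± 0.226 FPKM in controls (limma adjusted p = 0.000129). Irf9 and Irf8 rose in both genotypes as well. Between genotypes under cuprizone 1 of the 11 passed, Irf7, the amplifier of type I interferon production, at 24.1 ± 3.19 FPKM in AHR CKO and 9.74 ± 3.71 FPKM in WT tissue (limma adjusted p = 0.0140), while Irf2 did not pass (limma adjusted p = 0.0965). Of 8 inhibitors of the pathway 4 rose in AHR CKO (Socs1, Socs3, Usp18 and Ptpn6) and the same 4 with Tnfaip3 rose in WT. Under cuprizone Usp18, which restrains type I interferon signalling, exceeded WT in AHR CKO tissue (AHR CKO and WT means 9.35 ± 2.19 and 5.09 ± 1.30 FPKM, limma adjusted p = 0.0453), and Ptpn2 and Pias1 were lower.

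Most other targets that were tested moved with the GTPases. Of 13 tested interferon-gamma targets 11 rose in AHR CKO and 10 in WT, with medians of 1.55 and 1.36 on the log2 scale, and 3 were higher in AHR CKO than in WT under cuprizone. Tap1, a chain of the peptide transporter of antigen presentation, was among these 3, at 10.9 ± 1.41 FPKM in AHR CKO and 7.29 ± 1.57 FPKM in WT tissue (limma adjusted p = 0.0246), as was the chemokine gene Cxcl10 (limma adjusted p = 0.0137). The immunoproteasome gene Psmb8 rose in both genotypes and did not pass between them (limma adjusted p = 0.104). Ido1 had a negative log2 change with cuprizone in both genotypes and passed in neither. The changes were -0.13 in AHR CKO (limma adjusted p = 0.899) and -1.04 in WT (limma adjusted p = 0.138). Of 24 tested type I interferon effectors 24 rose in AHR CKO and 18 in WT, and 9 were higher in AHR CKO than in WT under cuprizone, Ifit3 and Xaf1 among them. Ifit3 stood at 50.3 ± 5.48 FPKM in AHR CKO and 23.2 ± 7.90 FPKM in WT cuprizone tissue (limma adjusted p = 0.0114). Xaf1 stood at 4.39 ± 0.524 FPKM in AHR CKO and 2.40 ± 0.332 FPKM in WT cuprizone tissue (limma adjusted p = 0.0117). The helicase gene Dhx58 rose in both genotypes.

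Genes that work with the GTPases behaved unevenly. Of 8 inflammasome and pyroptosis genes, 6 rose in AHR CKO (Nlrp3, Pycard, Casp1, Casp4, Gsdmd and Ninj1) and 5 in WT (Nlrp3, Pycard, Casp1, Casp4 and Gsdmd), and 0 fell. Gsdmd, the pore-forming protein cut by inflammatory caspases, averaged 3.68 ± 0.790 and 1.22 ± 0.152 FPKM in AHR CKO cuprizone and control tissue, against 3.76 ± 0.866 and 1.31 ± 0.264 FPKM in WT cuprizone and control tissue. The DNA sensor Aim2 and Il18bp passed in neither genotype, and between genotypes under cuprizone Ninj1 alone passed, higher in AHR CKO (AHR CKO and WT means 27.6 ± 3.02 and 18.5 ± 1.43 FPKM, limma adjusted p = 0.0130). Of 14 autophagy genes, some of whose products help place GTPases on membranes, 0 passed in AHR CKO with limma, and 1 had an unadjusted p under 0.05. In WT Gabarap rose (limma adjusted p = 0.0181) and Optn fell (limma adjusted p = 0.0175), while Gabarapl2 and Atg16l1 did not pass. Under cuprizone 3 of the 14 were higher in AHR CKO than in WT, Optn among them, and 1, Ulk1, was lower. Of all tested genes 9.14% were higher and 10.8% lower there.

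Of 16 further GTPase genes of these and related families 12 were measured and 5 tested. All 5, Gbp4, Ifi47, Mx1, Mx2 and Gm4951, rose in AHR CKO, and 3 (Ifi47, Mx1 and Gm4951) rose in WT. These counts are partly set by the filter, which asked for 1 FPKM in 3 libraries. Gbp4, Mx1 and Gm4951 stayed under 1 FPKM in every control library, and Mx2 in every one but WT control replicate 1 (1.06 FPKM). They were tested only because their cuprizone libraries were higher, so their rises are no independent sign of a family-wide rise. Ifi47, another immunity-related GTPase, was the single gene of the 5 to differ between genotypes without cuprizone, at 1.27 ± 0.185 FPKM in AHR CKO controls and 0.421 ± 0.108 FPKM in WT controls (limma adjusted p = 0.0330). Under cuprizone it stood at 3.51 ± 0.438 FPKM in AHR CKO and 2.34 ± 0.533 FPKM in WT tissue (limma adjusted p = 0.0508). Ifi47 thus did not pass under cuprizone. Of the 5 only Mx2, of the dynamin-like antiviral GTPases, was called between genotypes there, higher in AHR CKO tissue. Its AHR CKO and WT means were 2.78 ± 0.667 and 1.32 ± 0.635 FPKM (limma adjusted p = 0.0421).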

How the data were processed

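Per the labels' protocols, corpus callosum RNA was isolated with Qiagen RNeasy and sequenced after SMARTER library preparation. The titles placed 12 samples in 4 groups of 3. Per the file headers, the values that the authors deposited are FPKM per gene symbol, in 1 table. Per the submitters' processing notes, the build was GRCm38 (mm10). The sources used here name no aligner, quantifier or annotation. FPKM hides the number of fragments, so no count test was run, and reads shared by near-identical family members may have been split or dropped.

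Tested were genes reaching 1 FPKM in 3 or more libraries (13759, 88.29%). A gene low in controls could enter through its cuprizone libraries alone, and a rise of such a gene is partly set by this filter. Values were taken as log2(FPKM + 1) and fitted with limma 3.58.1 in R 4.3.3 (4 group means, eBayes with trend). P-values are two-sided, adjusted by Benjamini-Hochberg within each comparison over all genes tested, with a threshold of 0.05. Folds are ratios of mean FPKM. The members and gene lists were chosen with earlier results of these data known. All 10 genes are named. From lists of over 8 tested genes the text names the 3 of smallest p for cuprizone averaged over genotypes and the 2 of smallest p between genotypes under cuprizone. It also names Ido1 and those a count of 5 or fewer needed, which were picked after their values were seen. Values of some single genes of these lists are not reported here. Alternatives changed the pseudocount to 0.1, lifted the filter or set it at a mean of 5 FPKM, rescaled the values (TPM, median of ratios, quantiles), dropped the variance trend, blocked on replicate number, fitted 2 groups alone, or left out single libraries. The low values of 1244 genes with 1 transcript were searched for the step that 1 fragment makes. The answer moved between 6461355 and 15128155 fragments with the range searched and the library, so no depth is given.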

Additional observations from a re-analysis of the deposited data

How the results depend on the processing

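All 10 genes kept a higher value with cuprizone in both genotypes under every alternative run. Averaged over genotypes all 10 calls held, except that a mean FPKM of at least 5 left 4 of the 10 genes to test, all 4 called, in this comparison and in each genotype. That filter called 1 gene between genotypes under cuprizone and 1 on average, and 901 of all genes for cuprizone in AHR CKO. The Gbp5 call under cuprizone between genotypes was lost when only those 2 groups were fitted, which left 1 gene called, and its average call was lost after rescaling to TPM, which also left 1. Rescaling to TPM moved the median log2 difference of all genes between genotypes under cuprizone to -0.12, against 0.00 as deposited, and there Gbp3 and Gbp5 were still called. Quantile normalization added Iigp1 (limma adjusted p = 0.0337).

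Over all genes, fitting only 2 groups called 1070 genes between genotypes under cuprizone (2747 in the 12-library fit) and 127 without cuprizone (851 in the 12-library fit). The interaction called 5 genes, 1 with no filter and 2 without a variance trend. Replicate numbers showed no sign of pairing the libraries, though 3 libraries per group cannot exclude it. Same-numbered libraries of different groups deviated together with r between -0.343 and 0.25, against -0.396 to 0.44 for different numbers. Of the 12 libraries 3 correlated best with their own number. With the replicate block 1806 genes were called between genotypes under cuprizone, 51 without cuprizone and 0 for the interaction, and the block changed no count of the 10 genes.

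Leaving out 1 library at a time, between 1 and 3 of the 10 genes were called between genotypes under cuprizone, and between 1 and 3 on average. Over all genes the counts ran from 840 to 1553 for cuprizone in AHR CKO, from 777 to 3305 between genotypes under cuprizone, from 4 to 1428 without cuprizone and from 0 to 103 for the interaction. The cause of these moves was not tested.

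Signs turned only in differences that passed no test. On average between genotypes, Gbp7 was -0.028 with a pseudocount of 0.1 and -0.091 as TPM (-0.067 to 0.043 without single libraries), and Igtp -0.00258 and -0.082 (-0.058 to 0.085). Under cuprizone Gbp9 was -0.056 as TPM (-0.22 to 0.28). Without cuprizone Irgm1 was -0.0017 as TPM (-0.12 to 0.18) and Gbp6 -0.017 after quantile normalization (-0.11 to 0.20). Without single libraries Gbp9 ran from -0.34 to 0.16 for the interaction, from -0.048 to 0.20 on average and from -0.016 to 0.25 without cuprizone, and Irgm2 from -0.082 to 0.24 for the interaction.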

Other observations

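Further relatives of the family lay below the level tested. Gbp10, which neighbours Gbp6 on chromosome 5, averaged 0.445 ± 0.362 and 0.0764 ± 0.0616 FPKM in AHR CKO cuprizone and control tissue, against 0.312 ± 0.142 and 0.0418 ± 0.0159 FPKM in WT cuprizone and control tissue (SD, n = 3 each). Gbp11 averaged 1.26 ± 0.455 and 0.581 ± 0.340 FPKM in AHR CKO cuprizone and control tissue, against 0.657 ± 0.0453 and 0.640 ± 0.204 FPKM in WT cuprizone and control tissue. The paralogs Tgtp1 and Tgtp2 stayed near or under 1 FPKM in every group. Tgtp1 averaged 0.634 ± 0.421 and 1.13 ± 1.12 FPKM in AHR CKO cuprizone and control tissue, against 0.597 ± 0.259 and 0.386 ± 0.131 FPKM in WT cuprizone and control tissue. No test was run on these genes.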
